A study of Drosophila melanogaster with 3 samples.

Results

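The actin family of Drosophila melanogaster comprises 6 genes in the Ensembl BDGP6 annotation, Act5C, Act42A, Act57B, Act79B, Act87E and Act88F, out of 18164 annotated genes on the 6 main chromosome arms. They were taken by name, 2 of them cytoplasmic (Act5C and Act42A) and 4 of muscle type. Every peak summit in the gene body plus 10000 bp on each side, called the window below, was listed for each gene. The material was whole prepupae at an age of 24 hours, with both sexes pooled, from a stable transgenic line that expresses spalt-related (salr) with GFP at its C terminus, and chromatin immunoprecipitation with sequencing (ChIP-seq) was done on 3 biological replicates. These form a single group with the same genotype, stage and age, so paralogs were compared with each other and with all annotated genes, and no conditions were compared. The free text of the labels names the libraries input controls, against their assay title and antibody field. The control library that the deposited notes name was not analysed here, and what drives the transgene in which cells is not stated.

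Actin polymerises into the filaments that shape and move every cell, and into the thin filaments of muscle. In flies the cytoplasmic genes Act5C and Act42A are broadly expressed, whereas Act57B and Act87E serve larval and abdominal muscle, Act79B tubular muscle of the legs and thorax, and Act88F the indirect flight muscle. The salr gene encodes a zinc finger transcription factor. Its neighbouring paralog salm is known for directing the fibrillar fate of flight muscle, the tissue in which Act88F is the main actin.

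The actin genes differed in how much salr-GFP signal lay around them. Of 3839 peaks that passed the authors' irreproducible discovery rate (IDR) threshold, 6 had their summit in an actin window, 4 at Act5C and 2 at Act87E. Act42A, Act57B, Act79B and Act88F had none. Act5C was the only member with an IDR promoter summit, that is, one no more than 1000 bp from a transcription start site (TSS). Its strongest summit had a relative signal of 20.9 ± 1.02 (SD, n = 3), against 6.41 ± 1.12 (SD, n = 3) for Act87E. Relative signal here is a peak's deposited signal divided by the median signal of the list that holds it, so 1 is the middle of that list.

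The 4 sequences that follow are the strong pair of Act5C peaks, the summit in the Act5C intron and the strongest peak at Act87E. They are shown because the differences between paralogs rest on them and because the intronic one holds a CArG box. They were read from the Release 6 genome (dm6), plus strand, 5′ to 3′, at chrX:5896012-5896301, chrX:5900048-5900309, chrX:5901791-5901891 and chr3R:13433646-13433813. Whole peaks are given except for Act5C -141, which is the 50 bp on each side of the summit. Capitals mark searched words, AATATT in the first run, AATATT and the reverse complement of GAGAGA in the next, a CArG box in the run at -141, and AATATT and TATAAA in the Act87E run.
Act5C -4708: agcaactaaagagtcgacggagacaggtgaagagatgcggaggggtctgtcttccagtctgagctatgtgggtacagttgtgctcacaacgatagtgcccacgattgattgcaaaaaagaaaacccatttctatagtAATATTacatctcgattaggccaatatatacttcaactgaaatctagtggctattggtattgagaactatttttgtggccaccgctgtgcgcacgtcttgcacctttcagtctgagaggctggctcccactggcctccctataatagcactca
Act5C -666: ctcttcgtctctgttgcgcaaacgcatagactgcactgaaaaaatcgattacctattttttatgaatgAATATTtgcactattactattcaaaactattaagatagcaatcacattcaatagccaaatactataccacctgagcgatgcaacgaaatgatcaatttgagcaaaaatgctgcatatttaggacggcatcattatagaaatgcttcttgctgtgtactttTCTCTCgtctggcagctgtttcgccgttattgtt
Act5C -141: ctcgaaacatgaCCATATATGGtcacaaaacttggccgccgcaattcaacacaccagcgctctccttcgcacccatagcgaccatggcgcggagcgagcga
Act87E 7262: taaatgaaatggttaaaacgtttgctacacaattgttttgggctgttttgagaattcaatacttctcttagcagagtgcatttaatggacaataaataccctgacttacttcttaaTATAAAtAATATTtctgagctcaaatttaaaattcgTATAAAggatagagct

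Act5C (FBgn0000042) lies on X from 5900861 to 5905399 on the plus strand and has TSSs at 5900861 and 5901982, of which the first is distal. Distances are given to the nearest of a gene's own TSSs, negative for upstream. The strongest summit of the family, at -4708 bp, sat in an intron of lncRNA:CR45668, a noncoding RNA gene that runs away from Act5C on the minus strand. Its relative signal was 20.5 in library 1, 20.2 in library 2 and 22.1 in library 3, where the numbers are those of the labelled biological replicates. It ranked 49, 30 and 48 in the 3 lists of 30000 peaks, and the summits of the libraries lay within 25 bp of each other. The libraries were close to each other here in place and in height.

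The Act5C promoter summit lay at -666 bp, in the intergenic stretch between Act5C and lncRNA:CR45668. The TSS of the noncoding RNA was nearer, at -206 bp in that gene's orientation, so the peak sat between 2 divergent start sites. Relative signals were 16.9, 15.8 and 18.8 in libraries 1, 2 and 3, a mean of 17.1 ± 1.52 (SD, n = 3), with ranks of 82, 60 and 79 and summits within 23 bp. In each library the upstream summit was higher than the promoter summit. The log2 ratios were 0.28, 0.36 and 0.24, a mean of 0.29 ± 0.06 (SD, n = 3) over a gap of 4042 bp. The exact two-sided sign-flip permutation p was 0.25, the smallest that 3 libraries allow.

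The other Act5C summits that passed IDR were much weaker. In the intron between the TSSs, a summit at -141 bp from the proximal TSS (peak from 5901669 to 5902012) had a pooled relative signal of 3.69 and IDR rank 2210. Library 1 gave 2.32 and library 2 gave 3.27 there, while library 3 had its nearest summit at 41 bp, in the first exon of the proximal transcript, with a relative signal of 2.46. This was outside the matching distance of 100 bp, so library 3 counts as unmatched. The summit at -5603 bp (5895086 to 5895429) had relative signals of 2.38, 0.981 and 2.51, and library 2 ranked it only 15505. Each of the strong peaks, by contrast, was matched in all 3 libraries at a rank of 82 or better.

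**Figure D1:**
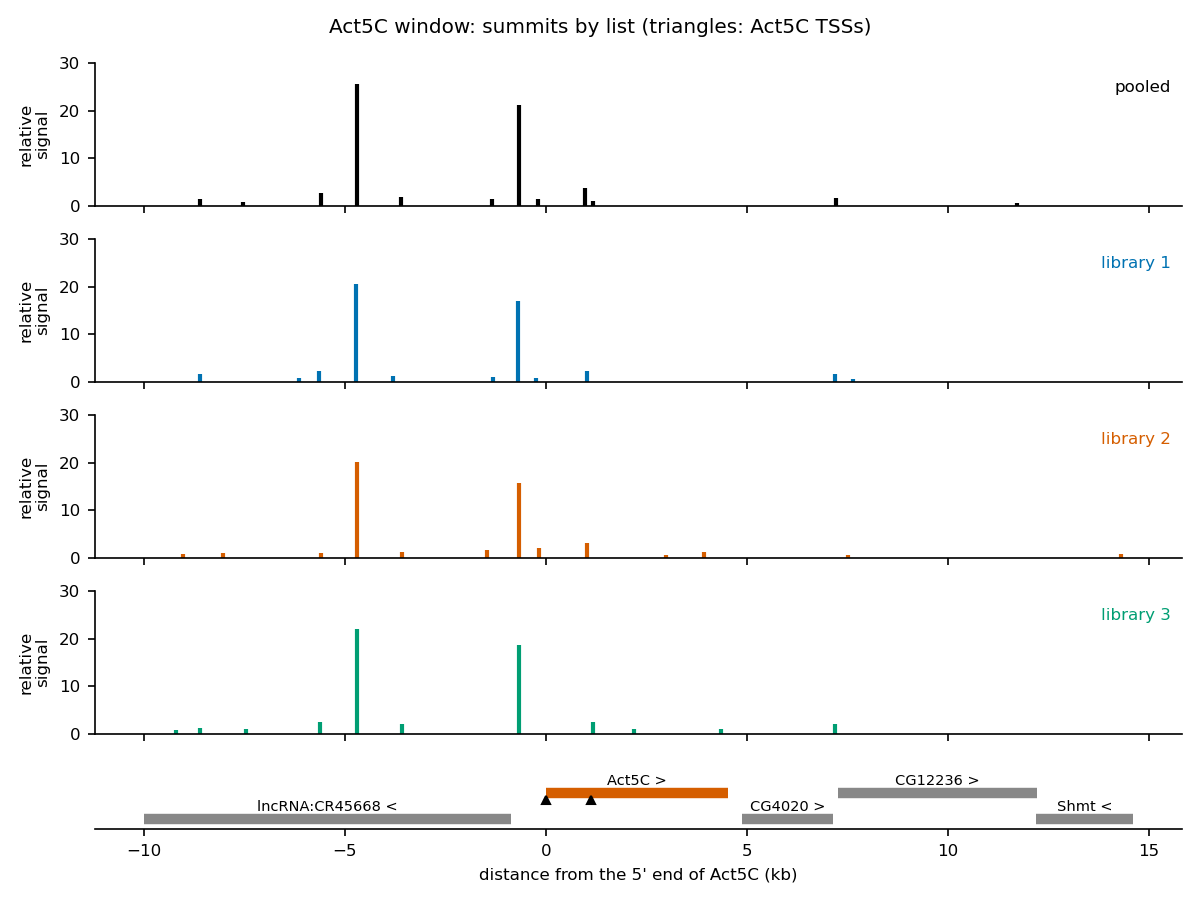
Relative signal of every summit in the Act5C window in the pooled list and in libraries 1 to 3, against distance from the 5′ end of the gene in kb, with neighbouring genes below (cut at the edges of the window; arrows give strand) and triangles at the Act5C TSSs. In the pooled list and in each library the summits at -4708 and -666 bp stand far above the rest, at 25.6 and 21.2 in the pooled list.

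Beyond the IDR peaks, the Act5C window held 12 pooled summits, and 11, 13 and 11 summits in libraries 1, 2 and 3. Of the pooled summits, 8 lay upstream of the gene, 2 in its body and 2 downstream. A summit at -188 bp from the distal TSS had a pooled relative signal of 1.41 and was matched in libraries 1 and 2 at 0.890 and 2.04. Another, -56 bp from the TSS of CG12236 and beyond the 3′ end of Act5C, reached 1.63 in the pooled list and was matched in libraries 1 and 3. Among all genes, 2.50% had more IDR summits in their window than Act5C, 1.46% had a stronger IDR summit there, and 0.391% had a stronger IDR promoter summit.

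Act42A (FBgn0000043), the other cytoplasmic gene, lies on 2R from 6013910 to 6015689 on the minus strand. Its window was the only one of the family with no pooled summit, as was the case for 9.55% of all genes and for 9.14% of 4344 protein-coding genes between 1780 and 4539 bp long. Library 1 listed 5 summits, library 2 listed 4 and library 3 listed 0, and none of these was shared between libraries. The strongest, in library 1 at -1947 bp, had a relative signal of 1.44 and lay -103 bp from the TSS of Pngl, a peptide N-glycanase gene. The strongest in library 2, at 1.12, was in an intron of Src42A, a Src family kinase gene. The single summit near the Act42A TSS, at -134 bp in library 1, had rank 29999 of 30000 and a relative signal of 0.712. The proteins of the cytoplasmic pair differ at 2 of 376 residues, the fewest of any pair in the family, and Act5C was the higher gene in both libraries that list a summit at each, by 16.0-fold on average.

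Among the muscle genes, Act87E (FBgn0000046; 3R, 13425983 to 13428375, plus strand) had the only IDR summits. The stronger one, at 7262 bp from its proximal TSS, lay in an intron of yrt, which encodes a FERM domain protein of epithelial junctions, 1275 bp inside that gene from its own TSS. Relative signals there were 6.20, 5.41 and 7.63 in libraries 1, 2 and 3, with ranks of 748, 667 and 687 and summits within 20 bp. The weaker one, at 2053 bp (13428328 to 13428671), fell in the gap between Act87E and yrt, whose genes are transcribed towards each other. It gave 2.02, 2.78 and 2.33, a mean of 2.38 ± 0.380 (SD, n = 3). All 3 libraries held both summits.

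The Act87E start sites themselves carried little. The pooled list held a summit at -199 bp with a relative signal of 0.745, matched only in library 3 at 0.749, below the middle of both lists. A summit at -2376 bp was matched in all 3 libraries, at 1.36, 0.710 and 1.17. In total the window held 8 pooled summits, of which 3 were upstream of the gene, 5 downstream and 0 in its body.

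Act57B (FBgn0000044; 2R, 20944021 to 20946431, plus strand) had 5 pooled summits and no IDR summit. The highest in the pooled list, at -4142 bp in intergenic sequence, reached 1.28 and was matched in all 3 libraries at 0.978, 1.19 and 0.853. A summit at -5215 bp was listed in library 2 alone, with a relative signal of 1.99, rank 4518 and a −log10 q-value of 3.00. Libraries 1 and 3 had none within 100 bp of it. Near the TSS, library 2 held a summit at -136 bp with 1.15, and libraries 1 and 3 listed none within 1000 bp. Every library value above 1 at Act57B came from library 2.

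Act79B (FBgn0000045; 3L, 21985210 to 21987190, plus strand) had 8 pooled summits, as many as Act87E, but all were weak. The strongest, at 10481 bp downstream, had a pooled relative signal of 1.06 and was matched in libraries 1 and 2 at 0.714 and 0.915. Of the 8, 4 were matched in no library. No list held a summit within 1000 bp of its TSS. Upstream, 3 of the pooled summits lay in P5CS, a proline synthesis gene that ends shortly before Act79B.

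Act88F (FBgn0000047; 3R, 15439969 to 15442177, plus strand), the flight muscle gene, had 3 pooled summits. The highest, at 11824 bp in an intron of AdamTS-A, which encodes a secreted metalloprotease, reached 1.20 and was matched in libraries 2 and 3 at 0.980 and 0.974. At the start site itself, library 3 alone listed a summit, at -17 bp with a relative signal of 0.880 and rank 19398. No peak of the IDR or pooled list lay within 1000 bp of the TSS of Act88F.

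**Figure D2:**
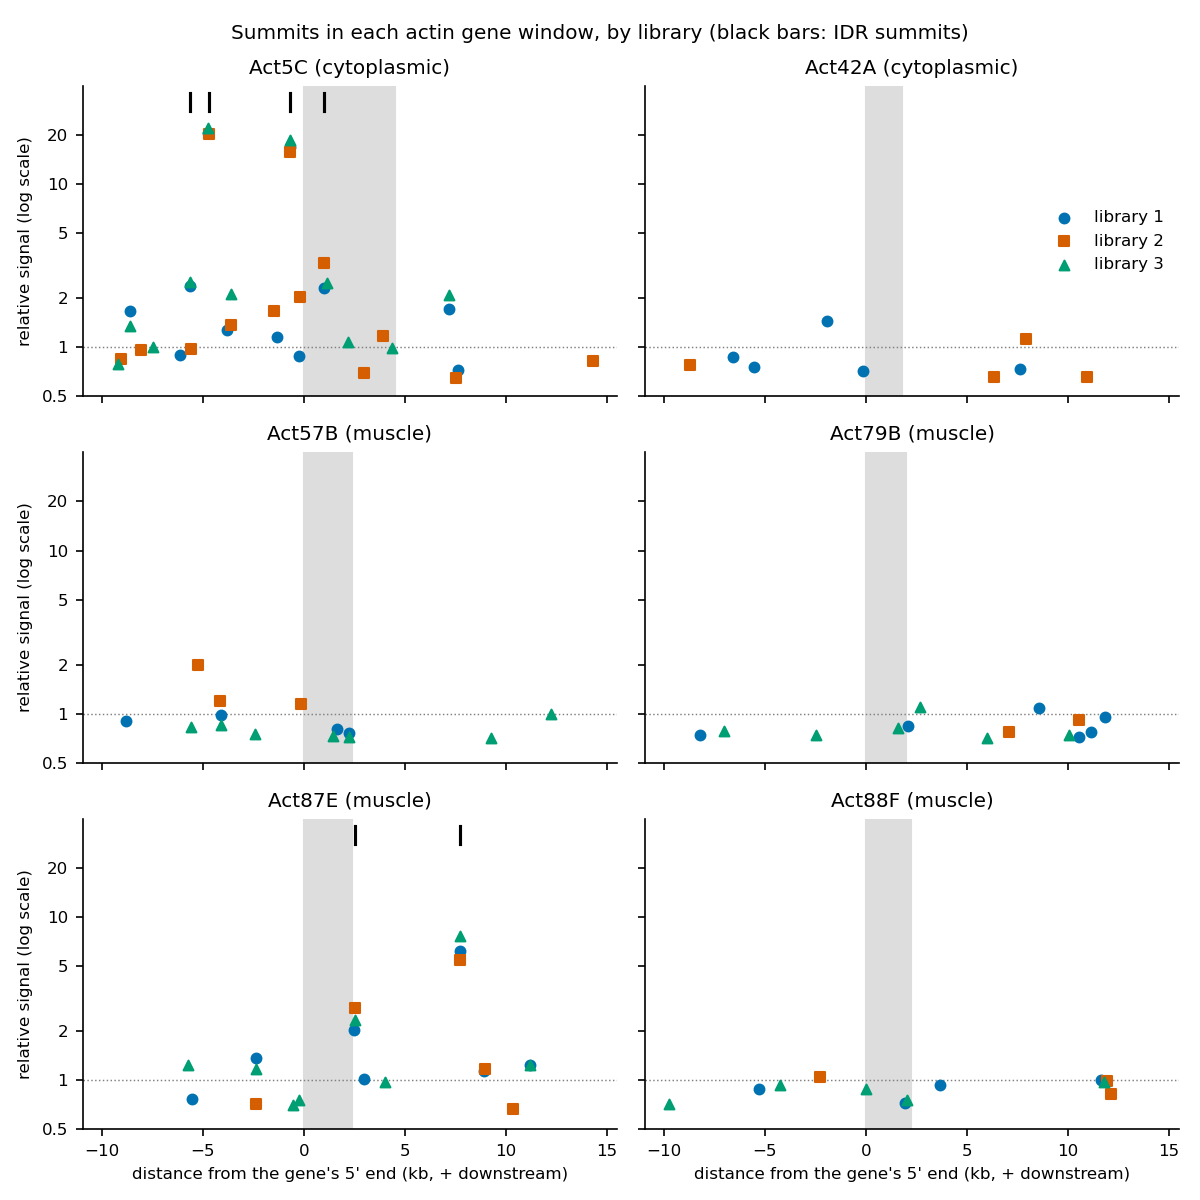
Relative signal (log scale) of every library summit in the window of each actin gene against distance from the 5′ end of the gene in kb, positive downstream. Symbols give the library and overlap where values are close, grey bands are gene bodies, black bars mark IDR summits and the dotted line is the median of each list. Symbols above 5 occur at Act5C and Act87E, and Act42A has no symbol for library 3.

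Ranked by the strongest summit in the window, averaged over libraries, Act5C at 20.9 ± 1.02 and Act87E at 6.41 ± 1.12 were followed by Act57B at 1.32 ± 0.578, Act79B at 1.03 ± 0.0995 and Act88F at 1.01 ± 0.0342 (SD, n = 3 each). Act42A gave 1.28 ± 0.231 over the 2 libraries that listed a summit (SD, n = 2). Act5C exceeded Act87E in 3 of 3 libraries, by 1.72 ± 0.18 on the log2 scale or 3.29-fold. Act87E exceeded Act88F in 3 of 3 libraries, by 2.66 ± 0.30 on the log2 scale or 6.31-fold. These means take the strongest summit of each library, which for Act42A, Act57B, Act79B and Act88F was a different summit from library to library. Among these 4 genes, Act42A was above Act79B in both libraries that list it, by 0.35 ± 0.09 on the log2 scale, and above Act88F by 0.31 ± 0.30 (SD, n = 2). Library 3 goes the other way, since it listed no summit for Act42A but had Act79B at 1.09 and Act88F at 0.974. The order of Act42A against these genes therefore holds only where it was listed. Act57B did not separate from Act79B or Act88F beyond the spread between libraries. Act57B over Act79B was 0.28 ± 0.73 on the log2 scale and higher in 1 of 3 libraries, and Act79B over Act88F was 0.03 ± 0.19.

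The contrast between cytoplasmic and muscle genes was the contrast between Act5C and the rest. In log2 relative signal of the strongest promoter summit, cytoplasmic minus muscle genes gave 3.78 in library 2 and 4.53 in library 3, a mean of 4.16 ± 0.53 (SD, n = 2). In both, Act5C was the only cytoplasmic gene with a promoter summit. Library 1 gave no value, because no muscle gene had a promoter summit there. The exact two-sided sign-flip permutation p was 0.5, the smallest that 2 libraries allow. With the strongest summit anywhere in the window the difference was 1.76, 1.41 and 3.71 in libraries 1, 2 and 3. Act42A entered in libraries 1 and 2 only, and the highest value was in library 3, where it had no summit. For these window differences the exact two-sided sign-flip permutation p was 0.25, the smallest that 3 libraries allow. Both p-values are over libraries, so they do not test cytoplasmic against muscle genes as classes.

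**Figure D3:**
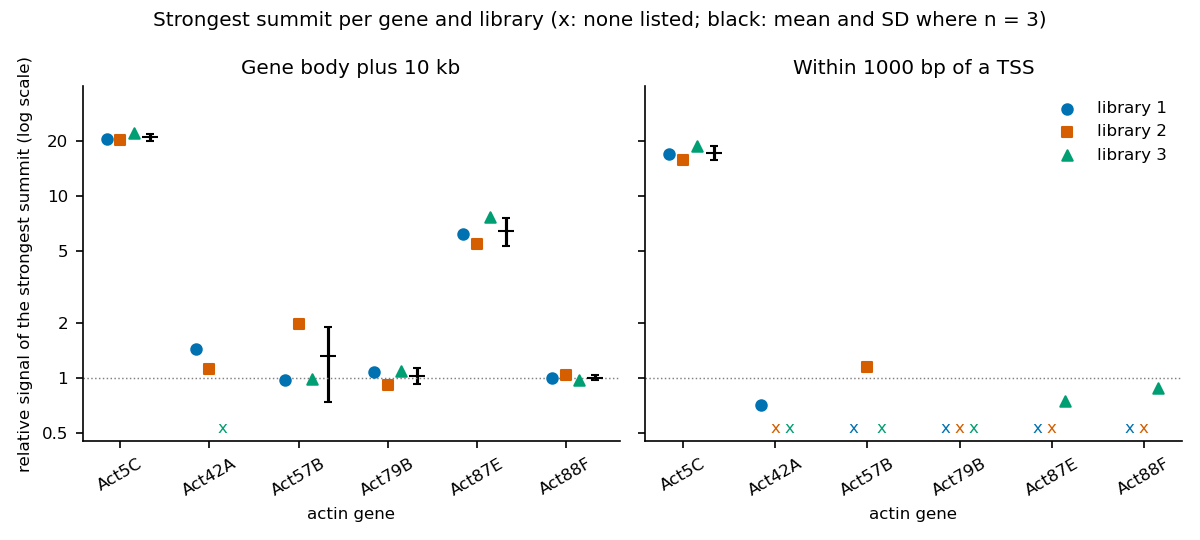
Relative signal (log scale) of the strongest summit of each actin gene in libraries 1, 2 and 3, in the window (left) and within 1000 bp of a TSS (right). A cross means that the library lists no summit there, and black marks give the mean and SD where all 3 libraries have a value. Act5C is at 15.8 or above in every library on both sides, and on the right each of the other genes has a summit in at most 1 library.

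Set beside all genes, the share of actin genes with a peak was close to or below that of all genes, with only 6 genes to count. An IDR promoter summit was present at 1 of 6 actin genes and at 13.5% of all genes (14.8% of protein-coding genes). An IDR summit in the window was present at 2 of 6, against 48.6% (50.5% of protein-coding genes), and 4 or more IDR summits, as at Act5C, at 5.16% of genes. In the pooled list, 3 of 6 had a promoter summit (Act5C, Act57B and Act87E) against 43.5%, and 5 of 6 had a window summit against 90.4%. The median number of pooled summits per window was 6.5 for actin genes and 5 for all genes, and the median number of IDR summits was 0 for both. Among protein-coding genes of similar length, 14.9% had an IDR promoter summit and 51.2% an IDR summit in the window.

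Per library, the actin genes with any promoter summit changed from list to list, apart from Act5C. Library 1 had Act5C and Act42A (2 of 6, all genes 51.5%), library 2 had Act5C and Act57B (2 of 6, all genes 48.6%) and library 3 had Act5C, Act87E and Act88F (3 of 6, all genes 38.7%). Among the 3839 strongest peaks of each library, Act5C alone remained (1 of 6 each, against 15%, 12.9% and 12.1% of all genes). Anywhere in the window, 6, 6 and 5 of the 6 actin genes had a summit in libraries 1, 2 and 3, against 95.5%, 90.6% and 88.6% of all genes. The libraries listed 104 summits in actin windows, and 57 of them were below the median of their list. Summits with a partner within 100 bp made up 29.7% of the 37 of library 1 and 36.7% of the 30 of library 2 for that pair, 29.7% of each for libraries 1 and 3 (37 summits each), and 26.7% and 21.6% for libraries 2 and 3. At Act42A and Act88F no summit of any library lay within 100 bp of a summit of another library. The Act88F summits of libraries 2 and 3 that match the pooled summit at 11824 bp each lie within 100 bp of it, but not of each other. Overlaps between libraries over all their peaks are not given here, so those in actin windows are not read as low or high.

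**Figure D4:**
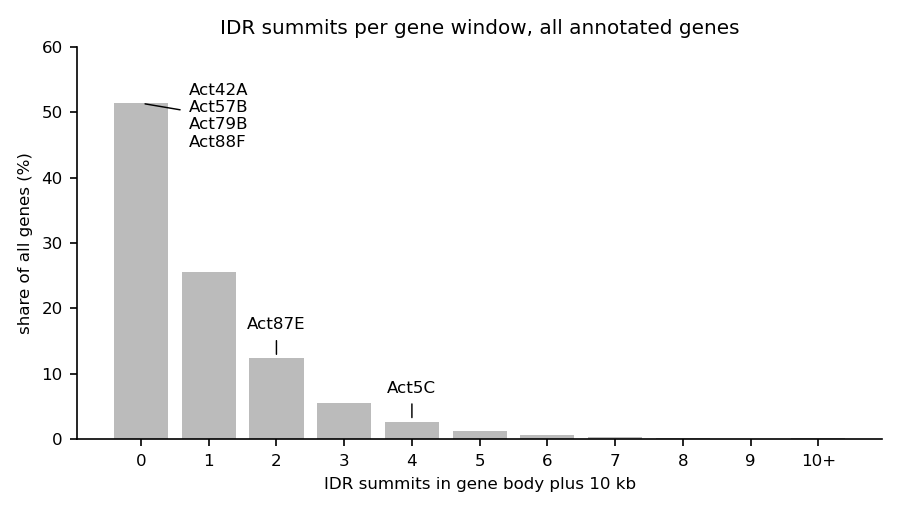
Share of all 18164 genes (%) by number of IDR summits in the gene body plus 10 kb, with the actin genes named at their counts. Act42A, Act57B, Act79B and Act88F are in the bar at 0 with 51.4% of genes, Act87E is at 2 with 12.3% and Act5C at 4 with 2.65%.

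A match in all 3 libraries was found for 7 of 36 (19.4%), against 19.8% of 30000 pooled peaks. Outside the IDR list it was found for 2 of 30 (6.67%), against 10.5%. A match in no library was found for 7 of 36 (19.4%), against 10.5% of all pooled peaks, and outside the IDR list for 7 of 30 (23.3%), against 12.1%. Of these 7 summits, 4 were at Act79B. No pooled summit lay in the coding exons of an actin gene (0 of 36), and 4 of the 104 library summits did. These exons are only 1128 bp of each window of 21780 to 24539 bp. The share over all peaks is not given here, so the counts are not read as a lack of peaks. The coding sequences are 84.0% to 91.8% identical between paralogs, and reads from identical stretches could map to several of them. Of words of 50 bases, 5.65% of those in the coding exons of Act87E and 4.91% of those of Act5C also occurred elsewhere in the genome, against 0 for Act42A. In the 1000 bp upstream of the 5′ end of each gene the share was 0.

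Short words were then counted on both strands. Within 50 bp of a summit, AATATT, letters of the A/T-rich kind that the mammalian spalt relative SALL4 binds, occurred at the -4708 summit of Act5C and at no other actin IDR summit, against 14.8% of IDR windows. TTATGAAAT and TATCGATA occurred at no actin summit, against 0.521% and 1.12% of IDR windows. A CArG box, the 10 bp element bound by serum response factor and known from actin genes of many animals, lay at the -141 summit of Act5C, against 0.651% of IDR windows. That window is centred on the pooled summit. The summits of libraries 1 and 2 lay 42 and 36 bp from it, on the side away from the box. The box was thus more than 50 bp from both, and library 3 had no matched summit there. Of the 36 pooled actin windows, 2 held a CArG box, the other at the -5215 summit of Act57B, against 0.5% of pooled windows. A match to the MEF2 site, named for the muscle regulator Mef2, lay at 3 pooled summits, against 2.58% of pooled windows. They were Act57B at -4142 and -218 and Act87E at -199, all of muscle actins. Of the 36 pooled windows, 12 were at Act5C, 0 at Act42A and the rest at muscle genes. The summits at -218 and -199 had pooled relative signals of 0.852 and 0.745 and were each matched in 1 library.

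In the 1000 bp upstream of start sites, Act5C was the only actin gene with a CArG box. It began at -104 bp from the distal TSS and, as a separate match, at -179 bp from the proximal TSS. The latter is the same box as that at the -141 summit. Of 23583 start sites, 5.38% had a match in that distance. TATAAA on the coding strand between 40 and 20 bp upstream was found at Act5C (-24 bp, distal TSS), Act57B (-26 bp), Act87E (-30 bp, distal TSS) and Act88F (-32 bp), and at 6.10% of all start sites. Act42A and Act79B had none in that interval. A MEF2 site match within 1000 bp upstream was found for Act5C, Act57B and Act87E, 3 of 6 genes, and at 34.9% of start sites. The Act5C match lay at -993 bp from the proximal TSS. These shares are per start site and not per gene, and Act5C and Act87E have 2 start sites each. The presence of TATAAA did not follow the presence of an IDR promoter summit, which Act5C alone had. These matches describe letters and not occupied sites.

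By Euclidean distance between log2 relative signals in the 3 libraries, over 1944 genes with an IDR promoter summit matched in every library, the genes nearest to Act5C were LPCAT, a lysophospholipid acyltransferase gene, Mhcl, a myosin heavy chain-like gene, and papi, a Tudor domain gene. Their distances were 0.21, 0.25 and 0.26. LPCAT on X had relative signals of 17.3, 14.1 and 20.5 in libraries 1, 2 and 3, Mhcl on 3R had 18.2, 14.9 and 16.3, and papi on 2L had 19.5, 15.2 and 16.8. The likeness is one of level. LPCAT, like Act5C, was highest in library 3, whereas Mhcl and papi were highest in library 1.

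Genes whose products act with actin, and tubulins beside them, were then counted. Over 8 lists with 94 genes, each counted once, 27 had an IDR promoter summit (28.7%, all genes 13.5%). Among genes of actin assembly and turnover there were 7 of 20, the strongest at Fhos, a formin gene, with 14.8 ± 4.16, and at tmod, which encodes the pointed-end capping protein tropomodulin, with 7.81 ± 0.367 (SD, n = 3). In order of pooled signal they were followed by capu, a formin gene, at 3.13 ± 0.854, and cib, a beta-thymosin repeat gene, at 2.38 ± 0.783 (SD, n = 3). Among crosslinkers and linkers there were 7 of 13, led in pooled signal by Fim (fimbrin) at 5.62 ± 2.62, sn (fascin) at 5.51 ± 1.91, Actn (alpha-actinin) at 2.81 ± 0.787 and Vinc (vinculin) at 2.87 ± 0.760 (SD, n = 3). Myosins had 6 of 12, led by jar, the myosin VI gene, at 14.7 ± 1.53, ahead of Myo61F at 5.47 ± 2.21, sqh at 4.55 ± 1.46 and didum at 3.13 ± 1.01 (SD, n = 3). The myosin count was 3 within 500 bp of a TSS, where 10.5% of all genes had an IDR summit. With the 1920 strongest IDR peaks, which 7.71% of all genes had at their promoter, it was 3. In that setting the count of crosslinkers and linkers was 2 and that of assembly and turnover 2.

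The remaining lists were nearer the share of all genes. The Arp2/3 complex and its activators had 3 of 15, at WASp (4.05 ± 1.57), Hem (3.89 ± 1.34) and Arp3 (2.89 ± 0.954, SD, n = 3). Arp3 was also the only gene with one among 9 actin-related proteins. Of the 15 genes in the muscle thin filament list, 2 had one, tmod and Tm1. Tm1, a tropomyosin gene, was matched in 2 libraries at 1.88 and 2.43. Of the regulators bs (serum response factor), Mrtf and Mef2, only Mef2 had one, matched in libraries 1 and 2 at 1.62 and 4.43. Mef2 and Tm1 had no match in library 3. Among IDR peaks matched in both libraries 2 and 3, the regulators therefore had 0 and the thin filament genes 1. The counts were the same among those matched in both libraries 1 and 3. All 3 regulators had an IDR summit somewhere in their window, as did 48.6% of all genes. Tubulins, the other major cytoskeletal family, had 2 of 10, at gammaTub23C and alphaTub84B. Since gammaTub23C had no match in library 2, 1 remained among IDR peaks matched in libraries 2 and 3, or in libraries 1 and 2. No gene of the lists had a higher mean than the 17.1 ± 1.52 (SD, n = 3) of the Act5C promoter summit. Its values of 16.9, 15.8 and 18.8 were above those of jar in 3 of 3 libraries (13.9, 13.8 and 16.5), but Fhos (14.3, 10.9 and 19.2) was higher in library 3.

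**Figure D5:**
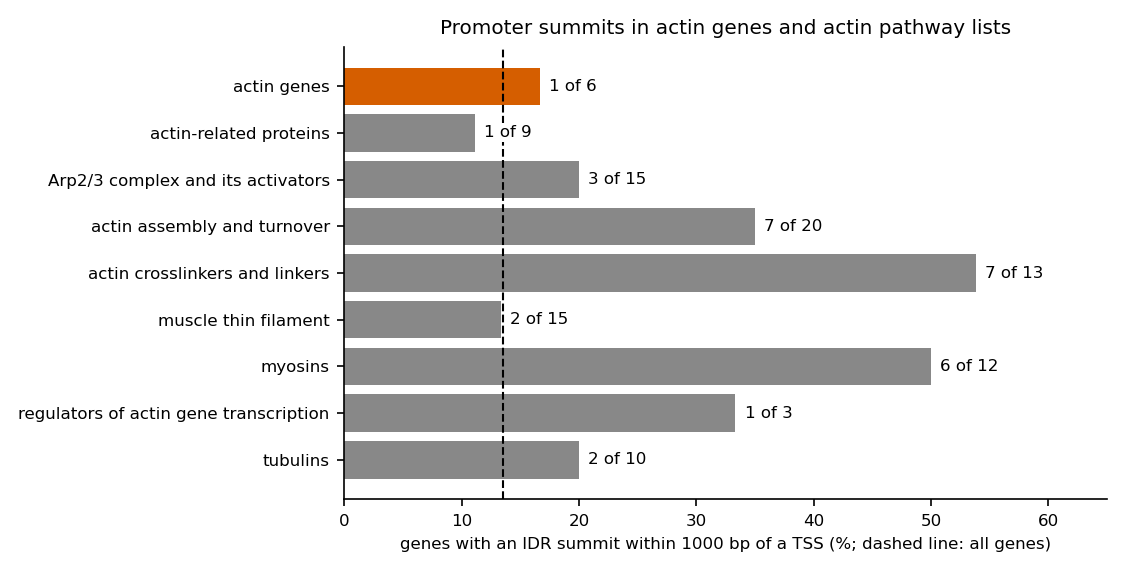
Share of genes (%) with an IDR promoter summit in the actin family (orange), in 7 lists of genes that act with or regulate actin and in the tubulins, with counts beside the bars and a dashed line at the share of all genes, 13.5%. The actin family (1 of 6), actin-related proteins (1 of 9) and the muscle thin filament list (2 of 15) lie near the line. Crosslinkers and linkers (7 of 13) and myosins (6 of 12) lie farthest above it.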

How the data were processed

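Chromatin of 3 libraries of salr-GFP prepupae was analysed as peak lists. Per the deposited notes, the authors made narrowPeak lists on dm6 for each library, for the pooled alignments and for peaks that passed IDR, each against 1 shared control alignment. Names of aligner and caller were not given in the sources used here. Each library and the pooled list hold 30000 peaks, which include weak peaks and background. All 3839 IDR peaks are also in the pooled list. The deposited signal of a peak is the enrichment given by the authors' caller, on a scale that is not stated. The deposited −log10 q-value reaches a plateau and was not used for ranking. The deposited summit offset gave each summit position, written 1-based. Without read counts in the files, the depth is unknown, and intervals that need it are left out.

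Genes came from Ensembl BDGP6.54, release 115, without transposable elements (18164 genes, 23581 distinct TSSs). Summits within 100 bp were matched. The value of a summit is the mean ± SD over the libraries that list it, and the value by which genes are ranked is that of the strongest summit in each library, which need not be the same summit. A missing summit was never set to 0. The labels call the libraries biological replicates. The members and gene lists were chosen with earlier results of these data known, so counts are descriptions beside the share of all genes. The genes named are the 6 actin genes, genes whose TSS is nearest to a summit in an actin window, the top 4 or fewer of each list by pooled signal of their IDR promoter summit, and the 3 genes most like Act5C. Src42A, which holds summits in an intron, and the regulators bs and Mrtf fall outside this rule and were named after their values were seen. Alternatives covered window size, TSS distance, matching distance, scaling, the 1920 strongest IDR peaks and leaving out each library. For signals, leaving out a library dropped its values. For counts, it kept the IDR peaks with a match in both other libraries, and IDR was not run again. The code that looks up promoter summits was run on simulated data (200 of 200 planted promoter summits recovered among 18164 genes). The summits were planted inside the promoter distance, so this checks the lookup only. Wrong assignments, window counts and matching between libraries were not tested. The tools were Biopython 1.88, matplotlib 3.10.9, scipy 1.17.1, pandas 2.3.3, numpy 2.4.6 and Python 3.11.15.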

Additional observations from a re-analysis of the deposited data

How the results depend on the processing

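The promoter count of 1 of 6 actin genes, and the count of 2 with an IDR summit in the window, were unchanged in every alternative run for them. The total of 6 IDR summits fell to 3 with 2 kb on each side of the gene, to 4 with 5 kb and to 3 with the 1920 strongest IDR peaks. It was 5 to 6 when 1 library was left out, that is, among IDR peaks matched in both other libraries. Scaling by the median of IDR peaks matched in each library, in place of the list median, put the strongest pooled summit of each window at 5.99 for Act5C, 1.81 for Act87E, 0.295 for Act57B, 0.279 for Act88F and 0.257 for Act79B, from 20.9, 6.41, 1.01, 0.977 and 0.814, because IDR peaks have a higher median by construction. Leaving out 1 library kept Act5C between 20.3 and 21.3 and Act87E between 5.81 and 6.92. The cytoplasmic minus muscle difference was 2.29 with window summits, and rests on 1 library with no test without library 2 (4.53) or without library 3 (3.78). The 27 genes of the lists, tubulins included, fell to 10 with the 1920 strongest IDR peaks (10.6% of the lists, 7.71% of all genes). The count lay between 21 and 31 otherwise. Leaving out a library for window counts and gene lists was chosen after seeing the data. No paired analysis was possible because all 3 libraries belong to 1 group and no other group shares their numbers. Comparisons of summits or genes within each library are those of the report. The effect of depth cannot be stated, since the files do not give it.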
